A study of Rattus norvegicus with 2 samples.

Results

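Lung circRNAs were examined for host genes of the extracellular matrix and of cell adhesion. A circRNA is a closed RNA ring made when the end of an exon is spliced back to an exon start further up the same transcript, and its host gene is the gene that the ring comes from. The lung tissue came from SD rats. The Sham rats received PBS and the LPS rats received lipopolysaccharide, a bacterial cell wall product that inflames the lung, at 2 mg/kg by intratracheal spray, and both groups were killed after 24 h. The labels give 12 rats in all and do not state how many were used for sequencing or whether their RNA was pooled, and each group has 1 library, so the differences below have no replicate error and no p-value. A host was taken as a member when its name belongs to the collagens, laminins, integrins, LTBPs, lysyl oxidases, fibrillins, fibulins, thrombospondins, ADAM, ADAMTS or MMP proteases, cadherins, protocadherins or related families, without the elastin gene Eln. This gave 95 back-splice junctions from 47 host genes, of 4734 junctions and 2427 host genes in all.

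Lung matrix has a fibrous interstitium, in which fibrillar collagens give strength and microfibrils carry the elastic fibres, and thin basement membranes of type IV collagen and laminin under the epithelium and the capillaries. Integrins tie cells to both, cadherins tie cells to each other, and metalloproteinases of the ADAM, ADAMTS and MMP families cut or mature matrix and surface proteins. In inflamed lung, leukocyte integrins bring cells from the blood into the tissue.

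The deposited value of a junction is its share of the library's junction reads, scaled to a sum of 1000000 (CPM), although its heading is TPM. It has no length term, and a host's level is the sum over its junctions. In the Sham library 1 read is worth 26.2 CPM and the depth is 38112 junction reads. In the LPS library 1 read is worth 19.0 CPM and the depth is 52505. A junction with fewer than 2 reads is set by the authors to a fill-in of 0.001, which is read as 0 and may hide 1 read. The fill-in of 1 junction allows up to 4.74 reads (one-sided 95% Poisson limit for 1 read), or 124 CPM in Sham and 90.4 CPM in LPS. Where a level is set against such a limit, it is the listed level without its own counting error. The resulting fold is therefore no lower bound. Intervals are exact 95% binomial intervals for a level, and exact 95% conditional binomial intervals for a ratio of levels. They cover counting error of the listed reads alone: without molecular identifiers, PCR copies of a molecule cannot be told from separate molecules. Log2 fold changes were computed after adding 0.5 reads to each value.

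The members together held shares of the libraries that differed by less than counting error. They had 496 Sham reads, 1.30% of the library (1.19 to 1.42), and 723 LPS reads, 1.38% (1.28 to 1.48). The LPS level was 1.06 times the Sham level (0.943 to 1.19), a direction that turned on the scale of the high-read shared circRNAs. Levels depend on the scale: the median log2 ratio of LPS over Sham was -0.46 over the 1757 circRNAs listed in both libraries and 0.44 over the 323 of these with at least 50 reads. Within this level sum the role sums differed. The 13 collagen hosts summed to a lower level in LPS, with 162 Sham and 77 LPS reads, a ratio of 0.345 (0.260 to 0.455). The 11 metalloproteinase hosts summed to a higher level, with 208 and 415 reads, a ratio of 1.45 (1.22 to 1.72). Without Adamts17 this ratio was 1.20 (0.933 to 1.55). Of single collagen hosts 5 were at least 2-fold higher and 6 lower, and of metalloproteinase hosts 5 and 1. The shares over all host genes were 30.8% and 38.2%. With at least 10 reads, 1 of 6 collagen hosts was higher and 3 lower. Of 8 such metalloproteinase hosts, 3 were higher and 0 lower. The shares over all host genes with that many reads were 24.5% and 26.8%. Col3a1 and Col4a1 held most of the collagen reads of the Sham library, and the other 11 collagen hosts had 51 Sham and 75 LPS reads. The pooling of all collagens, and the exclusion of these hosts for their values, were chosen after the values were seen.

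**Figure D1:**
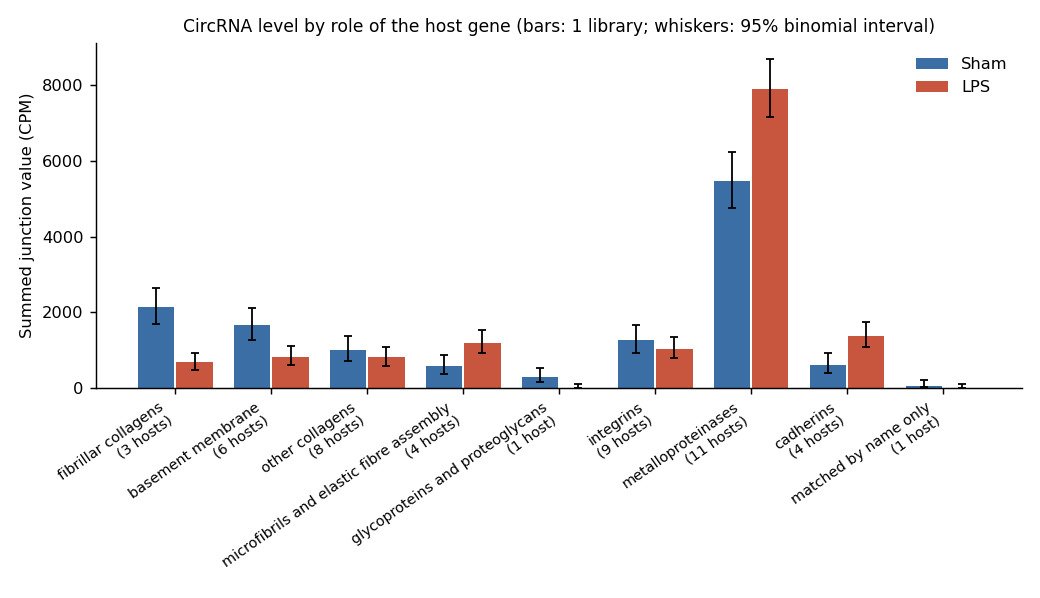
The summed junction value in CPM is drawn for each role of the host gene, with 1 bar per library (blue Sham, red LPS) and whiskers for the 95% binomial interval of the reads, or for the limit of the fill-in where no read is listed. Fibrillar collagens went from 2125 CPM in Sham to 667 in LPS, and metalloproteinases from 5458 to 7904.

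In several roles 1 host set the direction of the sum. The log2 difference of the fibrillar collagens was -1.66, and 1.08 without Col3a1. That of the basement membrane hosts was -1.01, and 0.49 without Col4a1. The cadherins were at 1.16, and at -1.11 without Pcdh17. Few hosts carried most reads. The metalloproteinases Adamts17 and Adamts10 and the protocadherin Pcdh17 held 43.0% of all member reads, and Adamts17 alone held 21.2% of the Sham and 33.9% of the LPS member reads. At the other end, 21 of the 47 hosts had fewer than 10 reads over both libraries. With all hosts counted, 19 of 47 reached 2-fold higher listed levels under LPS, 40.4%, beside 30.8% of all host genes. Another 17 were at least 2-fold lower, 36.2%, beside 38.2%. A host listed in 1 library only passes 2-fold with as few as 2 reads. Of the higher hosts, 10 were listed in LPS only, had fewer than 10 reads and lay within the limit of the Sham fill-in. With the fill-in counted as 1 read, 9 were higher and 17 lower. Among the 26 hosts with at least 10 reads, 9 were higher, 34.6%, beside 24.5% of all host genes with that many reads, and 7 were lower, 26.9%, beside 26.8%. The median log2 difference of these 26 hosts was 0.19, and that of the 1164 host genes with at least 10 reads was -0.14.

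**Figure D2:**
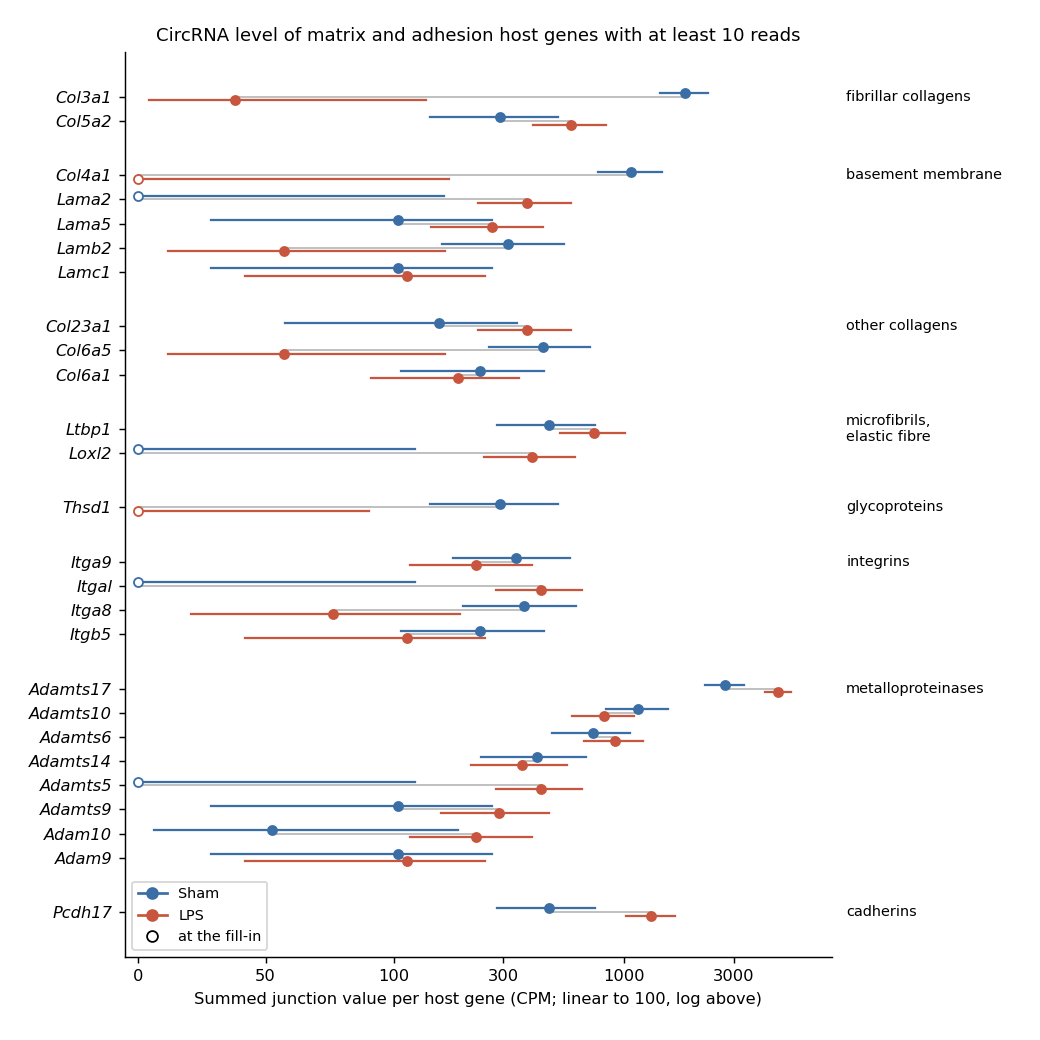
Each row is a host gene with at least 10 reads over both libraries, grouped by role, and the horizontal axis is its summed junction value in CPM (linear to 100 and logarithmic above). Points are single libraries, lines their 95% binomial intervals, and open points libraries at the fill-in with a line to the limit the fill-in allows. Col3a1 and Col4a1 lie far to the left in LPS, while Lama2, Loxl2, Itgal and Adamts5 are at the fill-in in Sham.

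Single junctions differed more often than summed hosts. Of the 95 member junctions, 23 were listed in both libraries (24.2%, beside 37.1% of all junctions), 41 were Sham only and 31 LPS only. The shared junctions held 60.9% of the Sham and 67.1% of the LPS member reads, where the shared junctions of the whole table held 83.3% of either library. At least 2-fold higher in LPS were 36 member junctions, 37.9%, beside 35.7% of all junctions, and at least 2-fold lower were 51, or 53.7%, beside 43.3%. With at least 10 reads, 13 of 30 were higher and 13 lower, 43.3% each way, beside 29.1% and 29.6% of all junctions. Of the 23 member junctions with reads in both libraries, 6 had a higher and 17 a lower value in LPS, and over all 1757 shared circRNAs 60.9% had a lower value in LPS.

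Among the fibrillar collagens, Col3a1 had a lower listed value in LPS at each of its 9 junctions. Of these, 8 were at the LPS fill-in, whose limit of 90.4 CPM is above the level of Sham junctions with 2 or 3 reads. Col3a1 encodes type III collagen, a fibril former of the lung interstitium. Its Sham level was 1837 CPM (1432 to 2320) from 70 reads, and its LPS level was 38.1 CPM (4.61 to 138) from 2 reads. The Sham level was 48.2 times the LPS level (12.9 to 406) by the listed reads, and 9.64 times with each junction at the fill-in counted as 1 read. The junction chr9:52047737-52048142 carried 32 of the 70 Sham reads and both LPS reads. The other 8 junctions had 38 Sham reads, between 2 and 9 each, and were all at the LPS fill-in. They lie within 14942 nt and none shares an exact start or end with another junction. Positions are as deposited, and the submitters' processing notes name rn6 as the genome build.

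Col5a2, a chain of the type V collagen that starts collagen fibrils, went the other way. Its first junction begins 71983 nt from the last Col3a1 junction on the same chromosome. It had 11 Sham reads, 289 CPM (144 to 516), and 31 LPS reads, 590 CPM (401 to 838), a ratio of 2.05 (1.001 to 4.51). On the log2 scale with 0.5 reads added the difference was 0.99, just under 2-fold. The junctions differed among themselves. At chr9:52129362-52134221 there were 11 Sham and 6 LPS reads. The junction chr9:52134848-52136635 was at the fill-in in Sham and had 20 LPS reads, a level 3.06 times the limit of the Sham fill-in. Col5a1 had 2 reads in LPS alone. No circRNA was listed for Col1a1 or Col1a2, the chains of the most abundant fibrillar collagen.

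The basement membrane hosts differed in direction, also within the laminins. Col4a1 encodes the chain found in nearly all type IV collagen networks. It had 41 Sham reads at 4 junctions, 1076 CPM (772 to 1459), and was at the fill-in at all 4 in LPS. Since 4 reads may be hidden there, the limit is 9.15 reads or 174 CPM, and the listed Sham level was 6.17 times this limit. The most-read Col4a1 junctions were chr16:83589887-83591017 with 21 Sham reads and chr16:83610556-83610708, of 152 nt, with 11. Col4a4, a chain restricted to fewer basement membranes, had 2 Sham reads and none listed in LPS.

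Laminin hosts together had 20 Sham and 43 LPS reads, a ratio of 1.56 (0.898 to 2.80), in a grouping chosen after the values were seen. Lama2, the alpha chain of muscle and mesenchymal laminins, was at the Sham fill-in at both junctions and had 20 LPS reads, 381 CPM (233 to 588). This level was 2.31 times the limit for 2 hidden reads. The Lama2 junction chr1:19062827-19063994 holds 2 of the 20 reads and lists 11 names, so its host is uncertain. Lama5, the alpha chain of the main alveolar laminin, had 4 Sham and 14 LPS reads, from different junctions, and a ratio of 2.54 (0.798 to 10.6). Lamb2, a beta chain, was lower in LPS. It had 12 Sham reads, or 315 CPM (163 to 550), against 3 in LPS, or 57.1 CPM (11.8 to 167), and the Sham level was 5.51 times the LPS level (1.49 to 30.4). Lamc1, the gamma chain shared by most laminins, had 4 and 6 reads. The intervals of Lama5 and Lamc1 include equal levels.

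The promoters of Col4a1 and Lama2 are shown as the basement membrane hosts furthest apart in direction, and that of Adamts17 as the member with the most reads. They are RefSeq sequences of the GRCr8 build, from 250 bases before to 50 after the gene start, 5′ to 3′ on the plus strand of chromosome 16 (84885347 to 84885646) for Col4a1 and of chromosome 1 for Lama2 (19491896 to 19492195) and Adamts17 (129855812 to 129856111), a build other than that of the junctions. Capitals mark matches on either strand to CCAAT or to the GC box GGGCGG, and these matches do not overlap. The TATA box TATAAA, the AP-1 element TGACTCA and a kappaB-like element were searched in the same way and had no match in these windows.
Col4a1 promoter: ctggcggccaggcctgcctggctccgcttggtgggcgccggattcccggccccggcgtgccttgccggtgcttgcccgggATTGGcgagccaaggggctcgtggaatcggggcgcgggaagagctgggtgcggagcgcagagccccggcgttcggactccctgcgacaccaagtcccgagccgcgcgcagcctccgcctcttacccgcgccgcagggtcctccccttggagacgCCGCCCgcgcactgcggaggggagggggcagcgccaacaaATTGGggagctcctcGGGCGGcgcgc
Lama2 promoter: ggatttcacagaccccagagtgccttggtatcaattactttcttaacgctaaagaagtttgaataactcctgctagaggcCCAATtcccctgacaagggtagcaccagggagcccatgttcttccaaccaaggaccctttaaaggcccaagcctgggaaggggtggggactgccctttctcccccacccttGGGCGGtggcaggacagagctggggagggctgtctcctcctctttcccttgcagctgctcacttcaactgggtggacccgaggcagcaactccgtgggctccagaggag
Adamts17 promoter: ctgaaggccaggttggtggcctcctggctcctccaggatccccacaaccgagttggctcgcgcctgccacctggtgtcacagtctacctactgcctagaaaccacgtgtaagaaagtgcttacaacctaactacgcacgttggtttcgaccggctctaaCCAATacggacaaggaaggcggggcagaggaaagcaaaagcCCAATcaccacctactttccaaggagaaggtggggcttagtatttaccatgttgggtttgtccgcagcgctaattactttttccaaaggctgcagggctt
The Col4a1 window held 2 CCAAT and 2 GGGCGG matches in a sequence of 75.0% G and C, the Lama2 window 1 of each at 57.0%, and the Adamts17 window 2 CCAAT matches at 53.7%. Of 27457 promoters in the RefSeq table, taken 1 per gene, 37.7% held CCAAT, 34.7% GGGCGG, 14.3% TATAAA, 4.62% TGACTCA and 1.52% the kappaB-like element. A promoter was matched for 38 of the 47 hosts, of which 14 held CCAAT, 20 GGGCGG, 2 TATAAA, 1 TGACTCA and 0 the kappaB-like element. Such matches describe letters only.

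The other collagens had 38 Sham and 42 LPS reads over 8 hosts, a ratio of 0.802 (0.505 to 1.28), or -0.32 on the log2 scale, whose direction turned to higher in LPS on the scale of all shared circRNAs. Type VI collagen makes the beaded filaments next to basement membranes, and its chains differed. Col6a5 had 17 Sham reads, 446 CPM (260 to 714), and 3 LPS reads, 57.1 CPM (11.8 to 167), at its only junction, chr8:114581992-114582509. The Sham level was 7.81 times the LPS level (2.26 to 41.6). Col6a1 had 9 and 10 reads, a ratio of 0.807 (0.295 to 2.24) whose direction turned on the scale of all shared circRNAs. The transmembrane collagen Col23a1 had 6 and 20 reads, a ratio of 2.42 (0.937 to 7.36), but its only junction lists 17 names, Hnrnpab and Clk4 among them, so the host is uncertain, and without it the log2 difference of the group was -0.99.

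In the group of microfibrils and elastic fibre assembly, 22 Sham and 62 LPS reads were listed, a ratio of 2.05 (1.24 to 3.49). Nearly all of the LPS reads came from Ltbp1 and Loxl2. Loxl2, a lysyl oxidase that cross-links collagen and elastin, was at the Sham fill-in and had 21 LPS reads, 400 CPM (248 to 611), at the 243 nt junction chr15:51354256-51354499. This is 3.21 times the limit of the fill-in. Ltbp1 binds latent TGF-beta into the matrix. Its summed level was 472 CPM in Sham (280 to 746) and 743 CPM in LPS (528 to 1015), a ratio of 1.57 (0.879 to 2.92), but mostly from different junctions. In LPS, 36 of its 39 reads came from chr6:21334766-21354603, which was at the fill-in in Sham. The LPS level of this junction was 5.51 times the limit of that fill-in. The 18 Sham reads came from the other 5 junctions, which had 3 LPS reads in all. Among these, chr6:21536571-21540152, with 2 Sham reads, lists 10 names. No circRNA was listed for fibrillins or fibulins.

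The glycoprotein and proteoglycan group had Thsd1 as its single host. Thsd1 encodes a membrane protein with a thrombospondin type 1 domain. Its 11 reads, 289 CPM (144 to 516), were all in Sham, a level 3.19 times the limit of the LPS fill-in. Fn1, Vcan, Tnc, Hspg2, Postn, Lum, Dcn and the thrombospondins Thbs had no circRNA in the table.

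The integrin hosts had 48 Sham and 54 LPS reads, a ratio of 0.817 (0.543 to 1.23), whose direction also turned to higher in LPS on the scale of all shared circRNAs. Among them, Itgal, the alpha chain of the lymphocyte and neutrophil integrin LFA-1, was at the Sham fill-in and had 23 LPS reads, 438 CPM (278 to 657), at the 289 nt junction chr1:198754758-198755047. This is 3.52 times the limit of the fill-in. Itgam, the alpha chain of Mac-1 on neutrophils and macrophages, had 3 reads and Itga4, a chain of VLA-4, had 2, both in LPS alone and within the limit of the Sham fill-in.

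All 48 Sham reads of the group lay in the other 6 integrin hosts. Itga8 is the alpha chain of a mesenchymal receptor for nephronectin. It had 14 Sham reads, 367 CPM (201 to 616), and 4 LPS reads, 76.2 CPM (20.8 to 195), and the Sham level was 4.82 times the LPS level (1.51 to 20.1). These reads are spread over 7 junctions of at most 4 reads each, of which 5 combine 2 starts with 3 ends. Of the 7, 5 were listed in Sham only and 2 in LPS only, so none was listed in both. With each junction at the fill-in counted as 1 read, the log2 difference of Itga8 went from -2.15 to -1.26. Itga9 had 13 and 12 reads and a ratio of 0.670 (0.279 to 1.59). Its junction chr8:127289436-127291194 had 9 reads in Sham alone, while chr8:127443995-127478310 had 7 LPS reads and was at the Sham fill-in. Itgb5 had 9 and 6 reads, just past 2-fold on the log2 scale at -1.01, with an interval that includes equal levels. Itgb1 and Itgb6, which pairs with the alpha V chain to activate latent TGF-beta in epithelium, had 4 and 3 reads in Sham alone.

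The marker lists of cell types held few circRNA hosts, and these differed in direction. Of the 6 neutrophil markers, Csf3r was the only circRNA host and went from the Sham fill-in to 25 LPS reads, while S100a8, S100a9, Cxcr2, Mpo and Lcn2 had no circRNA. The macrophage list had 3 of 6 genes as hosts, with 2 Sham and 12 LPS reads, and the lymphocyte list had 0 of 6. The endothelial list had 4 of 8 genes as hosts, with 97 Sham and 68 LPS reads. Of these, Tek went from 18 to 2 reads and Emcn from 21 to 6, Vwf had 58 and 56, and Ptprb had 4 LPS reads. The fibroblast list had 2 of 6, Npnt with 11 Sham and 57 LPS reads and Pdgfra with 2 LPS reads. Npnt encodes nephronectin, a ligand of the integrin with the Itga8 chain. For the lung itself, type 1 epithelium had 1 of 6 markers as a host, Rtkn2 with 53 and 112 reads, and type 2 epithelium had 2 of 6, Sftpc with 5 Sham reads and Abca3 with 3 LPS reads. Smooth muscle had 1 of 6, Myocd with 6 LPS reads, and cartilage and mesothelium had 0. The part of a change in cell numbers in the levels of the member hosts was not tested, and in bulk tissue fewer cells of a type and less RNA per cell cannot be told apart.

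The metalloproteinases were the most-read group, with 208 Sham reads, 5458 CPM (4743 to 6249), and 415 LPS reads, 7904 CPM (7164 to 8699). The ratio was 1.45 (1.22 to 1.72), and without Adamts17 it was 1.20 (0.933 to 1.55). Adamts17 is a secreted protease linked to fibrillin microfibrils. It had 105 Sham reads, 2755 CPM (2254 to 3334), and 245 LPS reads, 4666 CPM (4101 to 5287), a ratio of 1.69 (1.34 to 2.15). Its log2 difference of 0.76 is under 2-fold, and it was 1.22, past 2-fold, on the scale of all shared circRNAs. Its junction chr1:127881908-127887913 ranked 29 of all 4734 circRNAs by reads and held 79 of the 105 Sham and 240 of the 245 LPS reads. At this junction the LPS level was 2.21 times the Sham level. The other 4 Adamts17 junctions went the opposite way, with 26 Sham and 5 LPS reads. Of these reads, 17 lay in chr1:128030898-128044918, which was at the LPS fill-in, and its Sham level was 4.94 times the limit of that fill-in.

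Adamts10 and Adamts6, close relatives that also act on microfibrils, had sums whose ratio intervals include equal levels, and junctions that differed. Adamts10 had 44 Sham reads, 1154 CPM (839 to 1550), and 43 LPS reads, 819 CPM (593 to 1103), a ratio of 0.709 (0.455 to 1.11). Its junction chr7:18434485-18435878 went from 6 reads to 24, 2.90 times the Sham level. The junction chr7:18434705-18435878 has the same end and a start 220 nt further in, and it went from 12 reads to 5, a Sham level 3.31 times that of LPS. Another, chr7:18416266-18417952, went from 22 to 11. Adamts6 had 28 and 48 reads, a ratio of 1.24 (0.765 to 2.06) whose direction turned on the scale of the high-read shared circRNAs. Its junction chr2:34491467-34503654 went from 5 reads to 33, 4.79 times the Sham level, whereas chr2:34491471-34503654, whose start is 4 nt away, had 6 and 5 reads.

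Of the 7 member hosts with at least 20 reads, at least 2 junctions and reads in both libraries, 5 had different leading junctions in the 2 libraries, beside 30.2% of the 496 host genes that meet the same conditions. These were Col5a2, Itga9, Adamts10, Adamts6 and Ltbp1. Col3a1 and Adamts17 kept the same leading junction.

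**Figure D3:**
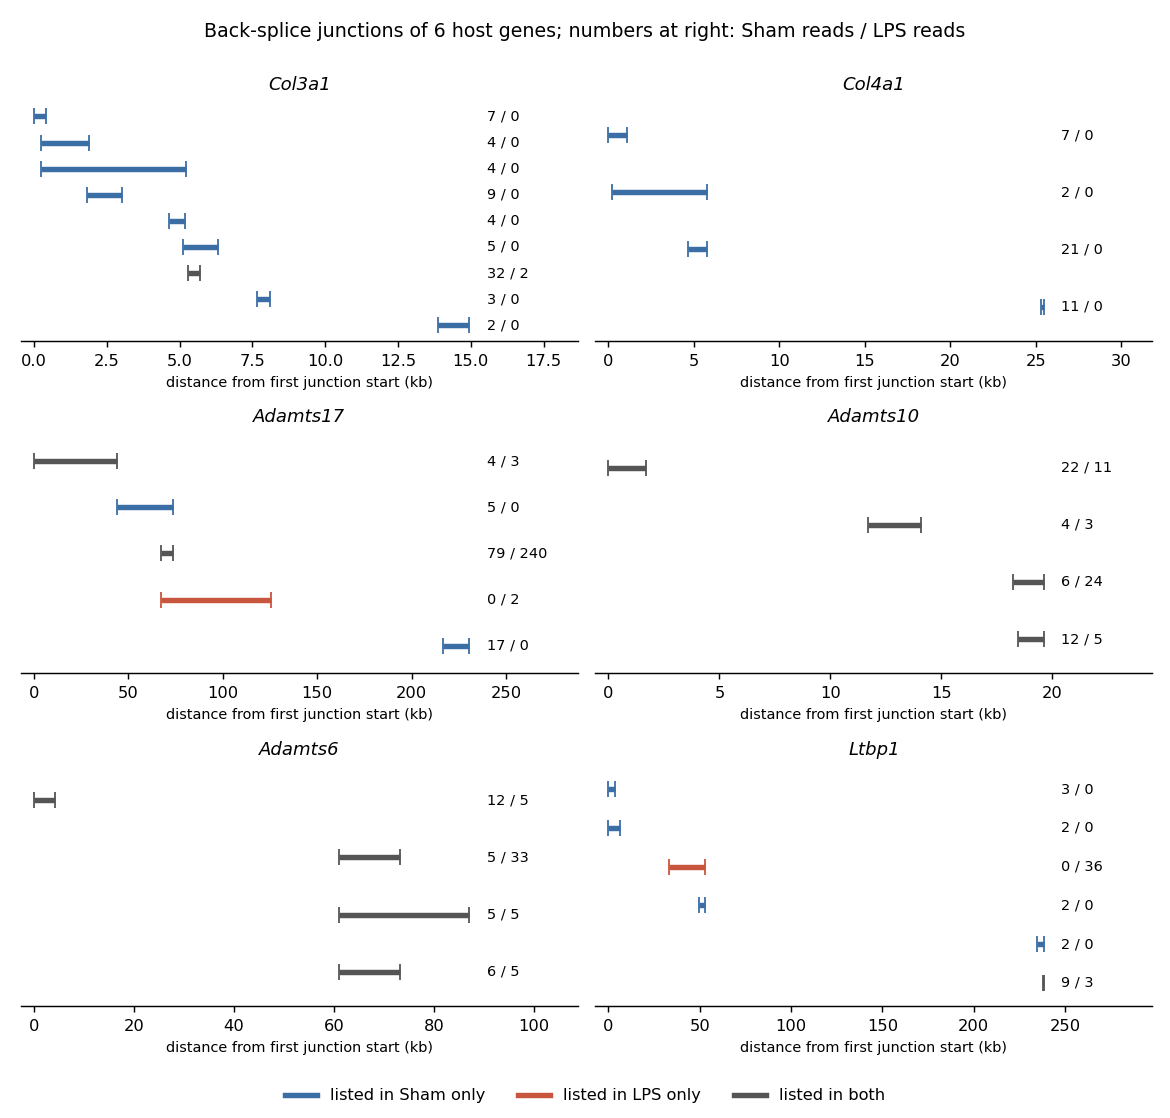
Each bar is a back-splice junction of the host gene named above the panel, drawn from its start to its end by distance in kb from the first junction start. Colour gives the library that lists it and the numbers at right give Sham and LPS reads. All 9 Col3a1 and all 4 Col4a1 junctions have more listed Sham reads, whereas Adamts17, Adamts10, Adamts6 and Ltbp1 hold junctions of both directions.

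The remaining metalloproteinases had fewer reads. Adamts5, a protease that cleaves aggrecan and versican, was at the Sham fill-in and had 23 LPS reads, 438 CPM (278 to 657), at chr11:25432866-25442758. This level is 3.52 times the limit of the fill-in. Adamts9, which also cleaves versican, had 4 Sham reads at one junction and 15 LPS reads at another, a ratio of 2.72 (0.867 to 11.3). Adam10, the sheddase of Notch and of cadherins, had 2 and 12 reads over 4 junctions, a ratio of 4.36 (0.970 to 40.1). Of these junctions, 2 also list small RNA families, and they held 6 and 3 of the LPS reads. Those that list Adam10 alone had 3 LPS reads and 2 Sham reads. Adamts14, which trims procollagen, had 16 and 19 reads at its only junction, a ratio of 0.862 (0.420 to 1.79). Adam9 had 4 and 6 reads. Adam8, a protease of leukocytes, was listed in Sham alone, with 5 reads. None of the 24 Mmp genes of the RefSeq table was a circRNA host.

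Among the cadherins, Pcdh17 stood apart by its reads. This protocadherin had 18 Sham reads, 472 CPM (280 to 746), and 69 LPS reads, 1314 CPM (1023 to 1663), all at the 364 nt junction chr15:67588477-67588841. The ratio was 2.78 (1.64 to 4.97), and its log2 difference was 1.45. The other 3 hosts of the group, Pcdh18, Pcdh19 and Cdh11, had 2 or 3 reads each in 1 library, and the Cdh11 junction also lists Ces2a. Of 275 RefSeq protein-coding genes that the name rule covers, 47 were circRNA hosts, and the share was lowest for glycoproteins and proteoglycans (1 of 16) and cadherins (4 of 73) and highest for integrins (9 of 27) and the collagens other than the fibrillar and basement membrane ones (8 of 25).

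**Figure D4:**
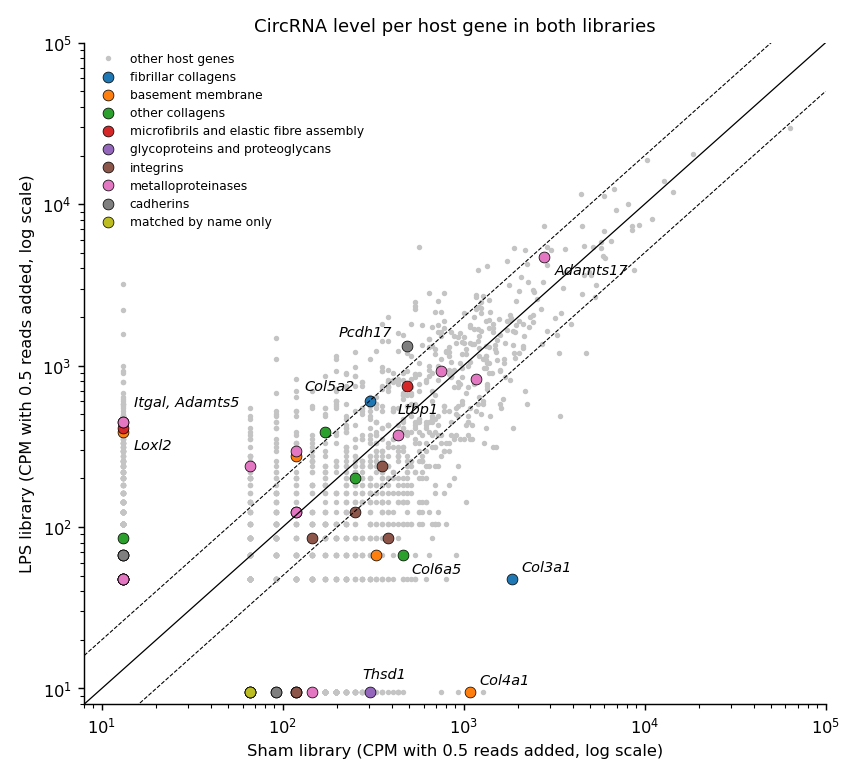
Each point is a host gene, with its summed Sham value on the horizontal and its LPS value on the vertical axis, both in CPM with 0.5 reads added on log scales. Grey points are other host genes, coloured points members by role, the solid line marks equal levels and the dashed lines 2-fold. Adamts17 lies near the line at high values, and Col3a1 and Col4a1 lie far below it.

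The 21 hosts with fewer than 10 reads had 65 reads in all, and 20 of them were listed in 1 library only, as were 80.1% of all host genes with that few reads. Those in Sham only were Adam8 with 5 reads, Itgb1, Ltbp4 and Col7a1 with 4, Itgb6 and Pcdh18 with 3, and Col4a4, Col13a1, Cdh11 and Itgb3bp with 2. Those in LPS only were Col12a1 with 4 reads, Col6a3, Pcdh19 and Itgam with 3, and Col5a1, Col6a6, Itga4, Adam12, Adamts12 and Emilin2 with 2. Itga1, a collagen-binding integrin chain, had 5 Sham and 4 LPS reads. For most of these a difference was not detectable at this depth. Itgb3bp is a centromere protein whose name the rule also matches, and it is no adhesion molecule.

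Member junctions covered a shorter stretch of the genome than the table as a whole. Their median span from start to end, introns included, was 2439 nt beside 4393 nt for all junctions, and 20 of 95 spanned at most 500 nt, 21.1% beside 12.5%. Exact starts or ends shared with another junction were found for 27 of 95, 28.4% beside 37.4%. They lay on 18 chromosomes. Of the 47 hosts 29 had 1 junction, and Col3a1 had the most, with 9. These shares describe the table and were not tested.

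Of 46 listed genes for focal adhesion, cadherin partners, collagen synthesis and protease inhibitors, 13 were hosts, of which 3 were at least 2-fold higher in LPS, beside 30.8% of all host genes, 6 lower, beside 38.2%, and 4 neither. In focal adhesion 9 of 17 genes were hosts, with 80 Sham and 89 LPS reads. Ptk2, the focal adhesion kinase, had 14 and 42 reads, 1.09 on the log2 scale, the filamin Flna had 13 and 7, and the tensin Tns3 had 35 and 29. Of the cadherin partners 2 of 9 were hosts, the catenin Ctnna1 with 2 and 7 reads and Jup with 2 and 4. Of the collagen synthesis genes 2 of 14 were hosts, Bmp1, which trims procollagen, with 8 Sham reads and none listed in LPS, and Colgalt2 with 4 and 3. None of the 6 protease inhibitors was a host.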

How the data were processed

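Lung circRNA was sequenced from 1 Sham and 1 LPS library. Per the labels, total RNA was depleted of ribosomal and, with RNase R, of linear RNA before a strand-marked library was made, whereas the methods of the study describe a SmartPCR cDNA kit. The submitters' processing notes name CASAVA 1.8, BWA and rn6, and the circRNA caller is not given in the sources used here. The authors deposited 1 table with a value per junction and library, headed TPM. The authors scaled these values to a library sum of 1000000 before they deposited them, which makes them CPM of junction reads. All values above the fill-in (100%, tolerance 0.01 reads) are whole multiples of 1 step, and the step gave read numbers.

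Junction values were summed per host name. Host genes are names in the table that match a protein-coding gene of the RefSeq GRCr8 gene table (2427 of 2561, and 47 of 47 members), and a junction with several names counts for each. No member junction held more than 1 member name, and 6 listed other names too. A host was called different at a fold of at least 2, the fold of the study's methods without its false discovery rate, since 1 library per group allows no test. A count model was not fitted, since 1 library per group gives it no replicate error. The members, role lists, marker lists and the rule for named hosts were chosen with earlier results of these data known. The rule takes the 3 hosts with the most reads per role, the 5 with the largest fold each way among hosts with at least 20 reads, hosts with at least 5 junctions and the 5 junctions with the most reads, and hosts outside it were named to account for all members. Alternatives were a pseudocount of 1 read, the fill-in as 1 read, at least 10 reads, 4-fold, single host names, leaving out the most-read junction or host, and scaling by the median ratio over shared circRNAs. The steps were tested on simulated data with counting error alone. There the changed circRNAs differed 4-fold, and each had more expected reads than most member junctions have. Calls at low reads were not tested in this way. Values were computed in Python 3.11.15 with scipy 1.17.1 and pandas 2.3.3 on numpy 2.4.6, and drawn with matplotlib 3.10.9.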

Additional observations from a re-analysis of the deposited data

How the results depend on the processing

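No paired analysis was possible because there is 1 library per condition, and for the same reason no replicate could be left out. The median log2 ratio of LPS over Sham was -0.46 for the 1757 circRNAs listed in both libraries and 0.44 for the 323 of these with at least 50 reads, so the first scale adds 0.46 to each log2 difference and the second takes 0.44 away. On them the pooled member level went from 0.08 to 0.54 and to -0.36, and that of the metalloproteinases from 0.53 to 0.99 and to 0.088. Integrins were at -0.29 and, on the first scale, 0.17, and other collagens at -0.32 and 0.14.

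Of 47 hosts, 36 were at least 2-fold different, 19 higher and 17 lower. With at least 10 reads over both libraries these were 16, 9 and 7, and without the most-read junction of each host 15, 5 and 10, where fewer hosts enter by construction. Higher hosts numbered 9 with the fill-in as 1 read and 8 at 4-fold. Of the junctions, 87 were different, 36 higher and 51 lower. With at least 10 reads they were 26, 13 and 13, and higher junctions numbered 17 with the fill-in as 1 read and 21 at 4-fold.

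Single hosts set the group levels. Without the most-read host, fibrillar collagens went from -1.66 to 1.08, basement membrane from -1.01 to 0.49, cadherins from 1.16 to -1.11, microfibrils from 1.01 to 1.92, metalloproteinases to 0.26 and other collagens to -0.99, which is also their value with single host names. The pooled level was -0.17 without Adamts17 and -0.31 without the 3 most-read hosts. Among the named hosts 9 values changed direction, some of them also passing 2-fold, and 4 dropped below 2-fold. Another 5 passed it without a change of direction (Adamts17 at 1.22, Col5a2 at 1.45 and Ltbp1 at 1.09 on the first scale among them). The other 113 did none of these. Without the most-read junction, Lama5 was at -3.63, Col5a2 at -0.46, Itga9 at 1.01, Adamts17 at -2.73, Adamts10 at 0.068, Adamts6 at -1.06 and Ltbp1 at -2.86, because what is left is the other junctions. On the 2 scales Col6a1 was at 0.14 and Adamts6 at -0.14. Col3a1 and Col4a1 stayed at least 2-fold lower under each alternative run for them.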

Other observations

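Of the 31 member junctions listed in LPS only, 8 had between 14 and 36 reads and held 71.4% of the reads of all 31. In the whole table, 155 of the 1444 LPS-only junctions had at least 14 reads and held 43.6% of the LPS-only reads. The 8 member junctions belong to Ltbp1, Itgal, Adamts5, Loxl2, Col5a2, Lama2, Adamts9 and Lama5. In 4 of these hosts every junction was at the Sham fill-in. The Sham-only junctions numbered 41, with 194 reads in all and at most 21 in a junction, and 2 of them had at least 14 reads, which held 19.6% of these reads. In the whole table, 25 of 1533 Sham-only junctions had at least 14 reads, which held 11.3%. The minimum of 14 reads was chosen after the values were seen. Because the libraries differ in depth, it is 367 CPM in Sham and 267 CPM in LPS. The Sham-only and LPS-only counts at this minimum are therefore not on the same scale.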
